A study of Mus musculus with 45 samples.

Results

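The Cdkn2a, Cdkn2b and Mtap locus is a short stretch of mouse chromosome 4 that holds 3 neighbouring genes, and its DNA copy number was examined in 45 primary mammary tumors of 8 genetically engineered mouse models. The members were all probes of the array that carry the name of one of these genes. Of the 42235 probes used, 4 met this rule. Mtap was covered by 2 probes, at chr4:88637282-88637341 and chr4:88648048-88648107 of build mm8, and Cdkn2a by 2 probes, at chr4:88759685-88759744 and chr4:88763392-88763451. Cdkn2b had 0 probes, so its values can be read only from its neighbours, and 2 of the 3 genes were measured directly. Besides the 4 member probes, 49 other probes lay within 2 Mb on either side, and these are called the flanks. Chromosome 4 held 2507 probes in all, of which 2503 were not members.

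Cdkn2a encodes, from different first exons and in different reading frames, the cyclin-dependent kinase inhibitor p16INK4a and the protein p19ARF. p16INK4a binds Cdk4 and Cdk6 and keeps the retinoblastoma protein Rb active, while p19ARF binds Mdm2 and thereby stabilises p53. Cdkn2b, next to it, encodes p15INK4b, another inhibitor of the same kinases, and Mtap encodes methylthioadenosine phosphorylase, an enzyme of methionine salvage that is often deleted together with CDKN2A in human cancers.

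Array comparative genomic hybridization measures, probe by probe, how much DNA a tumor holds relative to normal DNA hybridised to the same array. Each array compared the genomic DNA of an invasive mammary tumor with that of pooled mouse spleen. The models were BRCA1fl/fl;p53+/-;MMTV-cre (5 tumors), p53fl/fl;MMTV-cre transplant (6), C3(1)/SV40 T/t-antigens (5), MMTV-c-Myc (5), MMTV-Her2/neu (5), MMTV-H-Ras (5), MMTV-PyMT (9) and MMTV-Wnt1 (5). In the Cre models floxed alleles are deleted where the MMTV promoter, active chiefly in mammary epithelium, drives Cre, and the p53fl/fl tumors grew as transplants. The other MMTV models express an oncogene from that promoter, and the C3(1) model expresses the SV40 early region, whose large T antigen binds and inactivates p53 and Rb. Each tumor piece may also hold stroma and normal cells, so a loss of 1 copy of 2 in every cell would give a log2 ratio of -1, and the same loss in a fraction of the cells a value nearer to 0. Ages and strains were not given in the labels. The titles of the H-Ras tumors number separate animals, and for the other models the sources used here do not state it for each tumor, so p-values measure the spread between these tumors.

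Cdkn2a has 2 transcription starts in the RefSeq annotation of build GRCm38.p6, and the 300 bases around each, from 250 before to 50 after the start, are shown because a single gene name on the array stands for both products. The start of the p19ARF transcript lies on the minus strand at chr4:89294570-89294869 and that of p16INK4a on the minus strand at chr4:89282143-89282442. Capitals mark a match to TTTCCCGC, a form of the E2F motif, which was searched together with TTTGGCGC on both strands; these motifs do not overlap here.
Cdkn2a, p19ARF start: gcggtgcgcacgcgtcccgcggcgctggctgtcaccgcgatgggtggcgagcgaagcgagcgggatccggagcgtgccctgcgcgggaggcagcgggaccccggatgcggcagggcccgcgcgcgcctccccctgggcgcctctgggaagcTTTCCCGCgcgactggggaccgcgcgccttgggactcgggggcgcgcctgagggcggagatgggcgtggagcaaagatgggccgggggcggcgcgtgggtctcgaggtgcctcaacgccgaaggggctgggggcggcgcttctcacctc
Cdkn2a, p16INK4a start: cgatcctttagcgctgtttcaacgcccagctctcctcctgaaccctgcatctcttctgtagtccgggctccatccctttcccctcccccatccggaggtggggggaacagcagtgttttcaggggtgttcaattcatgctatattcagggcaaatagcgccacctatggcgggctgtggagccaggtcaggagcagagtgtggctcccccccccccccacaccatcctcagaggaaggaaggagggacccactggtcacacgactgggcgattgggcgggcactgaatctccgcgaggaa
The p19ARF window had a GC content of 77% and 45 CpG dinucleotides, more than 98.1% of the 32851 mouse promoter windows of the same length, whose median was 7. It held TTTCCCGC from position 152, a match present in 1.07% of all windows. The p16INK4a window had a GC content of 60.3% and 12 CpG dinucleotides and held neither motif; TTTGGCGC occurs in 0.514% of all windows. The corresponding windows of Mtap and Cdkn2b, with 14 and 18 CpG dinucleotides, held neither motif.

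Before the values, several arrays need a word. The labels give Cy5 to the tumor, but the files run the other way, and all values here are log2 of Cy3 over Cy5, centred on the median of the autosomal probes. In this direction the Brca1 probe at chr11:101340828-101340887 averaged -3.97 ± 1.40 (SD, n = 5) in the BRCA1fl/fl model against means of -0.25 to 0.23 in the other 7 models, and 598 of the 613 autosomal copy number intervals the authors deposited (97.6%) had the same sign. With the dyes as labelled, every loss below would be a gain. The whole-genome profiles of C3(1)/SV40 T/t-antigens tumor 3 and MMTV-Her2/neu tumor 2 correlated at r = 0.96 over 2057 bins of 1 Mb, and those of C3(1)/SV40 T/t-antigens tumor 4 and MMTV-Her2/neu tumor 3 at r = 0.93, whereas the next highest value between models was 0.82. These 4 arrays may stand for fewer tumors, and the model comparisons at the locus are given without them too. MMTV-Wnt1 tumor 1 had a log2 ratio of 0.07 at the Wnt1 probe against 1.07 to 1.50 in the other 4 tumors of that model, so its label is in doubt. That doubt rests on this 1 probe alone. The 45 arrays lay on 18 slides, and the SD of a single probe about its neighbours ranged from 0.158 to 0.475, which gives a standard error of 0.0788 to 0.238 for a mean of 4 probes. At the 4 member probes 180 of 180 spots were well above background in both channels and 0 were saturated.

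The locus lay in a lost segment in 8 of 45 tumors and in a gained segment in 3. A segment is a run of at least 5 neighbouring probes with a common level, and it was called lost at a mean log2 ratio of at most -0.2 and gained at 0.2 or more. The lost share was 17.8% (95% Clopper-Pearson interval 8.002 to 32.1%), and of all autosomal probes 20.3% were lost in at least 8 tumors, so many other places in these genomes were lost as often. A chromosome 4 probe was lost in a median of 7 tumors (range 2 to 14), and an autosomal probe in a median of 4 (0 to 20). Loss reached its highest count on the chromosome, 14 tumors, at 6 probes that lay 20.7 Mb or more beyond the last Cdkn2a probe, from chr4:109481293 to chr4:119799085.

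The deepest loss was in C3(1)/SV40 T/t-antigens tumor 1. Its Mtap probes read -1.01 and -0.93 and its Cdkn2a probes -1.01 and -0.90, the flanks averaged -0.88, and 99.4% of the chromosome 4 probes lay in lost segments. All 4 probes were near the value of 1 lost copy of 2. In MMTV-H-Ras tumor 1, the only oncogene-model tumor with the locus lost, Mtap read -0.70 and -0.72 and Cdkn2a -0.01 and -0.26, the flanks averaged -0.34, and 100% of the chromosome was lost. There the Mtap probes were the lower pair. C3(1)/SV40 T/t-antigens tumor 5 also lost 100% of chromosome 4, with Mtap at -0.09 and -0.13 and Cdkn2a at -0.07 and -0.17, less than the segment mean of -0.28 that made the call.

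Both lost tumors of the p53fl/fl;MMTV-cre transplant model had lost most of chromosome 4. Tumor 6 read -0.53 and -0.59 at Mtap and -0.24 and -0.41 at Cdkn2a, with flanks at -0.32 and 88.8% of chromosome 4 lost. Tumor 1 read -0.21 and -0.52 at Mtap and -0.15 and -0.43 at Cdkn2a, with flanks at -0.28 and 93.2% lost. In each of these tumors all 4 member probes were below 0. Counting 80% of its probes as the whole chromosome, 5 of the 45 tumors (11.1%, 3.71 to 24.1%) had lost chromosome 4 as a whole, namely these 2, the 2 C3(1) tumors and the H-Ras tumor.

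The remaining 3 losses (6.67%, 1.40 to 18.3%) covered part of the chromosome, and all were in the BRCA1fl/fl;p53+/-;MMTV-cre model. Tumor 5 read -0.31 and -0.44 at Mtap and -0.26 and -0.07 at Cdkn2a, with 44.9% of chromosome 4 lost and 52.9% gained. Tumor 3 read -0.37 and -0.20 at Mtap and -0.30 and 0.00 at Cdkn2a, with 43.9% lost and 56.1% gained. In these tumors losses and gains of chromosome 4 stood side by side, and the locus was on the lost side of each. Tumor 1 read -0.28 and -0.16 at Mtap and -0.12 and -0.05 at Cdkn2a, with 58.7% lost. The other tumors of the model, 2 and 4, had locus means, averaged over the 4 member probes, of -0.13 and 0.00 and no loss call.

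**Figure D1:**
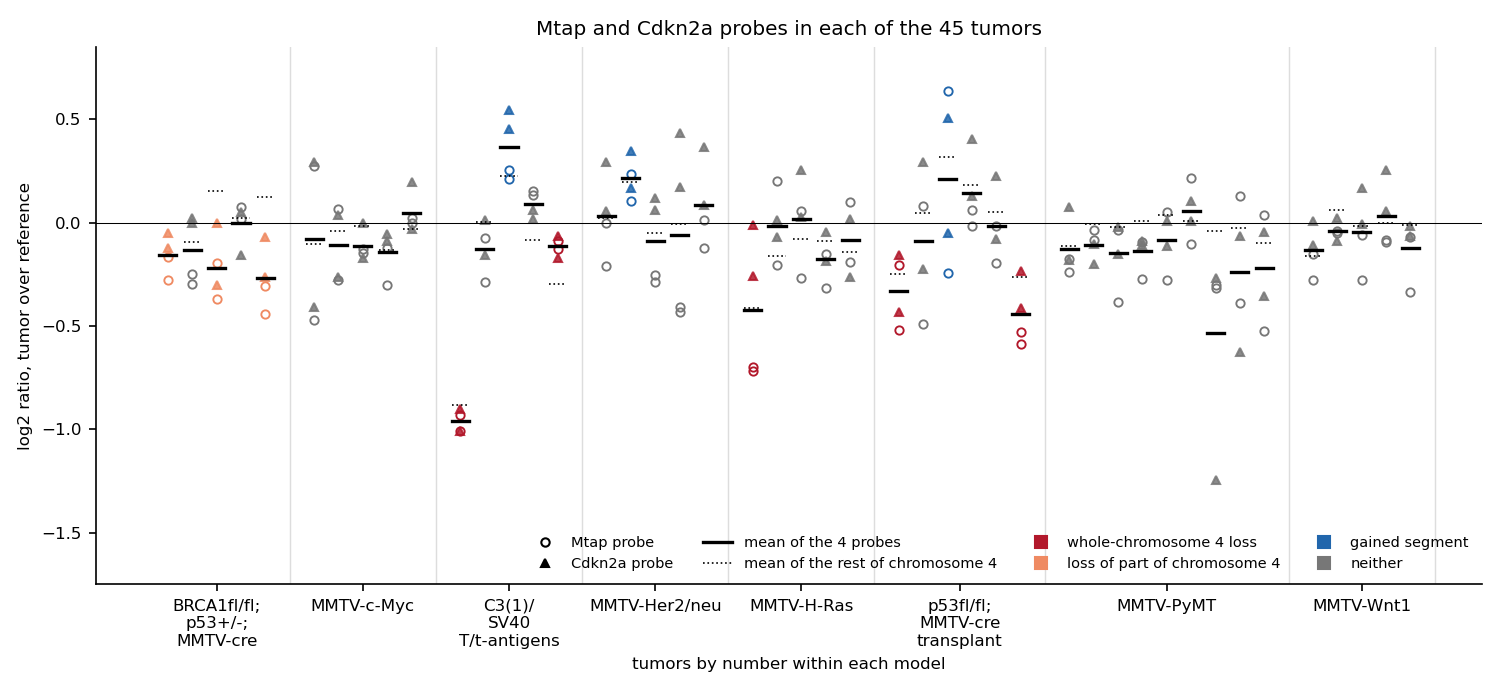
Log2 ratio of tumor over reference at the Mtap probes (open circles) and Cdkn2a probes (triangles) in each of the 45 tumors by model; thick bars are the mean of the 4 probes, dotted lines the mean of the rest of chromosome 4, and colours the call. Tumor 1 of the C3(1) model stands lowest with a mean of -0.96, and MMTV-PyMT tumor 7 is next at -0.53 through a single Cdkn2a probe.

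None of the losses was confined to the locus. The runs of lost segments that held it spanned 49.2 to 152 Mb, and in the 8 lost tumors the locus mean differed from the flank mean by -0.12 to 0.12. The lost tumors had locus means of -0.96 to -0.11 with a median of -0.30, beside a median of -0.26 on the rest of chromosome 4. The stretch lost in all 8 tumors ran from chr4:87171323 to chr4:104303938, a length of 17.1 Mb with 232 probes and 100 gene names. Its start was set by BRCA1fl/fl;p53+/-;MMTV-cre tumor 3, 1.47 Mb before the first Mtap probe, where the level stepped from 0.47 to -0.27. Its end was set by tumor 5 of the same model, 15.5 Mb beyond the last Cdkn2a probe. The shared stretch thus began close to the genes and ended far from them.

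**Figure D2:**
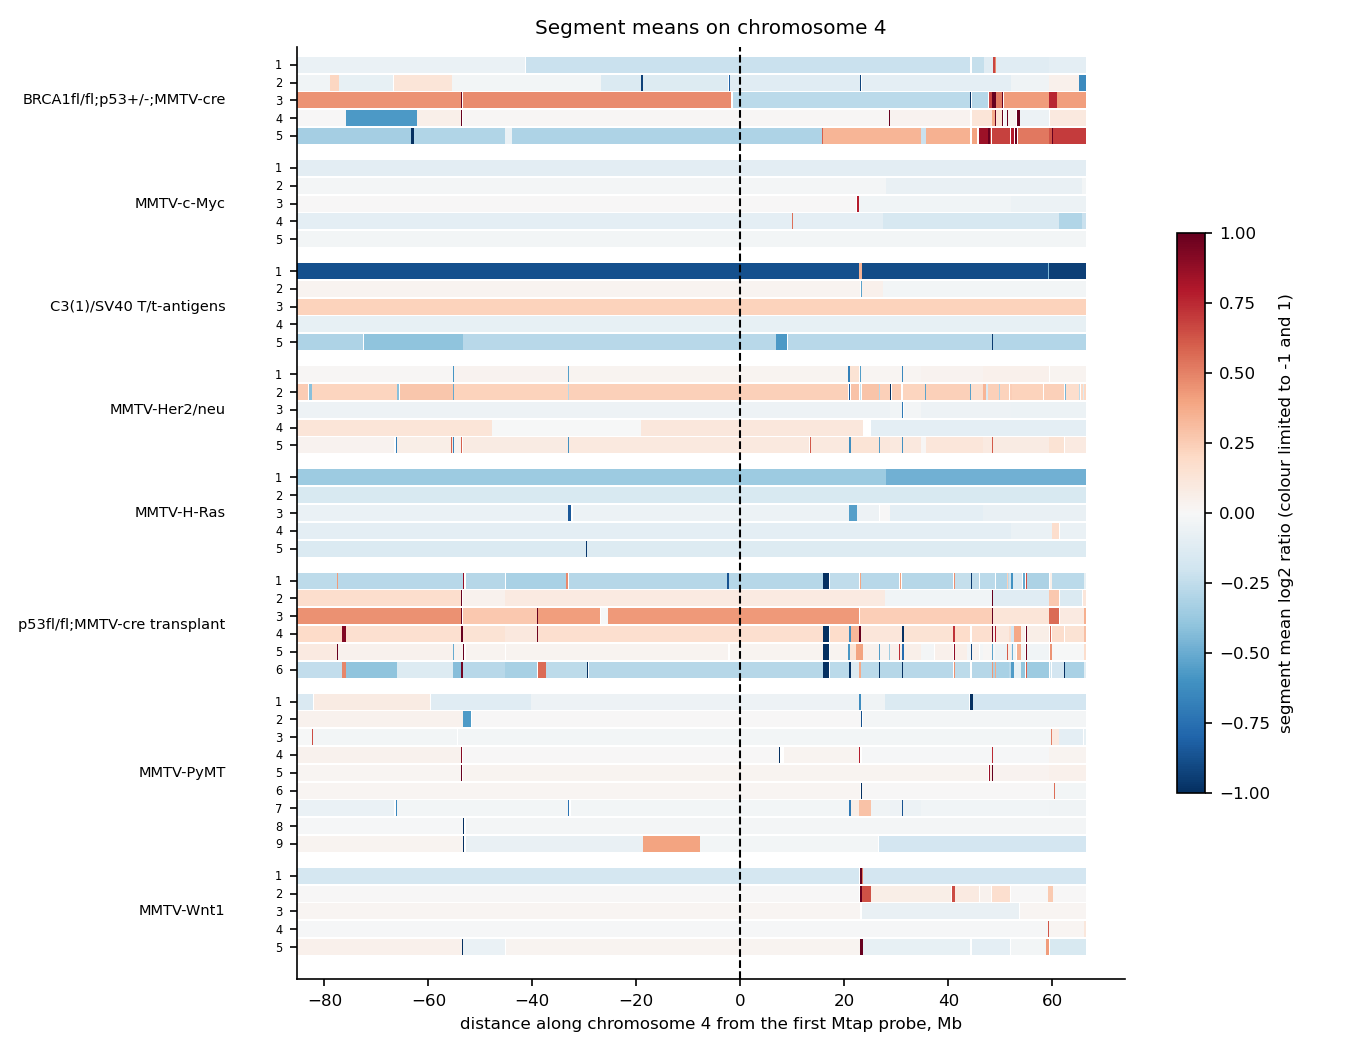
Segment mean log2 ratio (colour, limited to -1 and 1) along chromosome 4 for each tumor (rows, by model and number), against the distance in Mb from the first Mtap probe (dashed line). Long lost blocks run through the locus in the 8 tumors called, from 49.2 Mb to the whole chromosome.

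**Figure D3:**
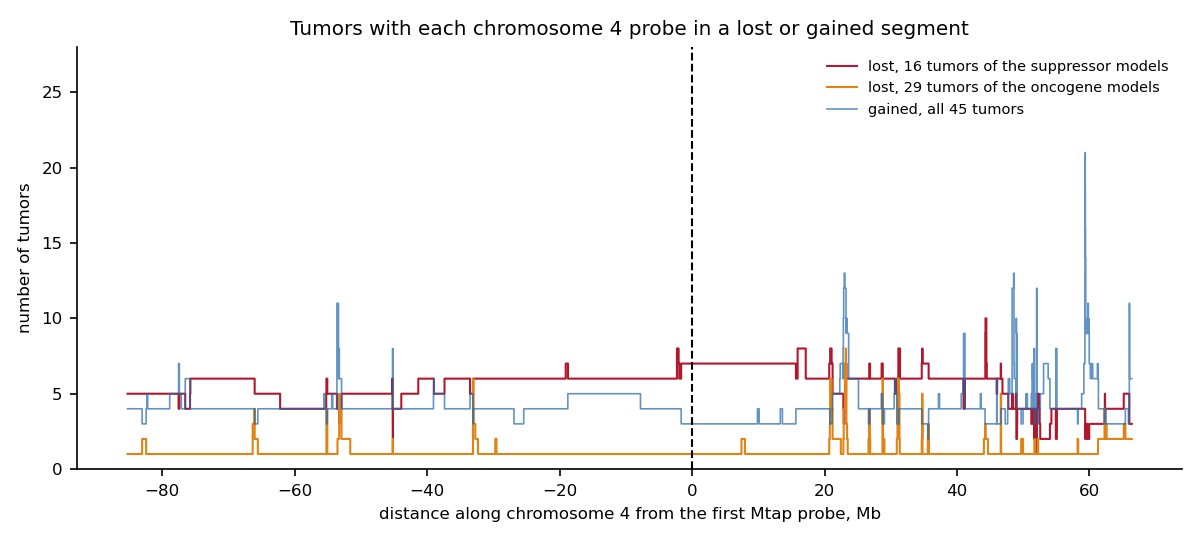
Number of tumors with each chromosome 4 probe in a lost segment, separately for the 16 tumors of the models with p53 or Rb inactivated (suppressor models) and the 29 of the oncogene models, and in a gained segment (all 45), against the distance in Mb from the first Mtap probe (dashed line). At the locus 7 and 1 tumors were lost and 3 gained.

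Homozygous deletion of the locus, the form known from many human tumors and cell lines, was not seen at these probes. In 0 of 45 tumors, which allows a share of up to 7.87% (exact 95% interval), was the locus mean at or below -1, and in 0 were both Cdkn2a probes there. Of the 180 single member values 3 were at or below -1, beside 0.894% of all autosomal probe values, and 2 of these 3 were those of C3(1)/SV40 T/t-antigens tumor 1. With 4 probes over 126 kb and none in Cdkn2b, a deletion of Cdkn2b alone, or of a few exons, could not be detected. How many normal cells each tumor piece held was not measured. A homozygous deletion in part of the cells could thus read above -1 and escape this count. The interval is for tumors with such a value, not for tumors with a homozygous deletion.

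A drop at the locus of at least 0.5 below the flanks and of more than 3 standard errors was met by 1 of 45 tumors (2.22%, 0.0562 to 11.8%), MMTV-PyMT tumor 7. Its Mtap probes read -0.30 and -0.32 and its Cdkn2a probes -1.25 and -0.27, the locus mean was -0.53, and the flanks averaged -0.03. The difference of -0.50 thus rested on the Cdkn2a probe at chr4:88759685, where the processed signals were 715 in Cy3 and 1772 in Cy5, whereas the other 3 probes stood near -0.30. Without that probe the difference was -0.27, with the median of the 4 probes it was -0.28, and with the 7 probes from Mtap to the transcript AK148321 it was -0.32, none of which met the criterion. When each probe was first centred on its median over the 45 arrays it was -0.44, which did not meet it either. After normexp background correction (-0.65) and after loess normalization (-0.50) of the 4 probes the criterion was still met. The segment that held the locus in this tumor had a mean of -0.03.

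**Figure D4:**
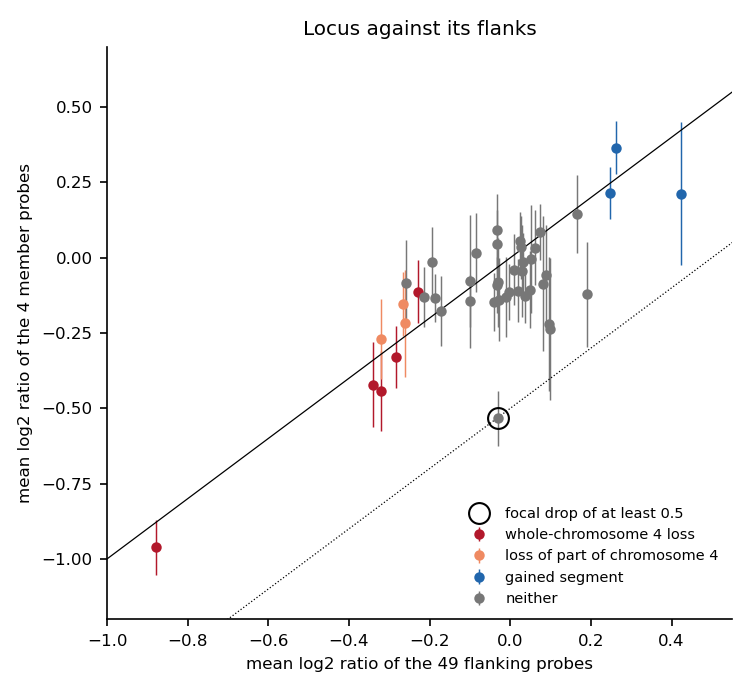
Mean log2 ratio of the 4 member probes against that of the 49 flanking probes, a point per tumor, with the standard error of the locus mean as bars; the solid line marks equality and the dotted line a drop of 0.5. Lost tumors lie within 0.12 of equality, and the circled MMTV-PyMT tumor 7 lies 0.50 below it.

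In the 3 gained tumors, too, most of the chromosome was gained. C3(1)/SV40 T/t-antigens tumor 3 read 0.21 and 0.25 at Mtap and 0.54 and 0.45 at Cdkn2a, with 100% of chromosome 4 gained. MMTV-Her2/neu tumor 2 had a locus mean of 0.21 with 89.7% gained, and p53fl/fl;MMTV-cre transplant tumor 3 a locus mean of 0.21 with 83.05% gained on the array with the highest probe SD, 0.475. The first 2 of these arrays form a pair of near-identical profiles, so the 3 gains may come from 2 tumors. For comparison, 13.5% of all pairs of autosomal probe and tumor were gained and 10.8% lost.

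The models were then compared at the locus. Her2/neu tumors had the highest locus mean, 0.04 ± 0.12 (SD, n = 5), followed by Wnt1 at -0.06 ± 0.07 (n = 5), c-Myc at -0.08 ± 0.07 (n = 5), the p53fl/fl transplants at -0.09 ± 0.26 (n = 6), H-Ras at -0.14 ± 0.18 (n = 5), C3(1) at -0.15 ± 0.50 (n = 5), BRCA1fl/fl at -0.16 ± 0.10 (n = 5) and PyMT at -0.17 ± 0.16 (n = 9). No step in this order exceeded the larger SD of the 2 neighbours. Each model was set against the tumors of the other models by a two-sided exact permutation test, with adjustment over the 8 comparisons. The difference was 0.16 for Her2/neu (exact permutation p = 0.110), -0.08 for PyMT (p = 0.306) and between -0.06 and 0.05 for the other 6 models, and the adjusted p was 0.792 for all 8. No difference passed. Without the 4 arrays of shared profile the difference was 0.16 for Her2/neu and -0.29 for C3(1), left with 3 tumors (exact permutation p = 0.0308, adjusted 0.246), against -0.05 for C3(1) with all 5. In a comparison chosen after seeing the data, tumors were set against those of other models on the same slide. The mean difference was 0.21 for Her2/neu (4 tumors on 4 slides), -0.08 for PyMT (7 tumors on 6 slides), 0.10 for c-Myc (5 tumors on 5 slides) and -0.50 for C3(1), whose 2 tumors there include the deep loss of tumor 1. None passed an exact permutation test within slides (adjusted p = 0.375 to 0.578). A single Wnt1 tumor shared a slide with another model, and it stood 0.11 above the 2 PyMT tumors beside it. The BRCA1fl/fl, H-Ras and p53fl/fl tumors shared no slide with another model, so for them slide and model cannot be told apart.

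The value in every tumor shows how wide the models were. In the c-Myc model the 5 locus means were -0.08, -0.11, -0.11, -0.14 and 0.05, in the Wnt1 model -0.13, -0.04, -0.04, 0.03 and -0.12, and in the Her2/neu model 0.03, 0.21, -0.09, -0.06 and 0.09. These models lay close to 0 apart from the gained Her2/neu tumor. In the H-Ras model tumor 1 stood at -0.42 and the other 4 at -0.01, 0.02, -0.18 and -0.08, and in the C3(1) model the values ran from -0.96 to 0.37 through -0.13, -0.11 and 0.09. The 6 p53fl/fl tumors had a lowest value of -0.44, a median of -0.05 and a highest of 0.21. The 9 PyMT tumors had a lowest value of -0.53, a median of -0.14 and a highest of 0.06. The C3(1) and p53fl/fl models were thus spread over both losses and gains, the one C3(1) gain being tumor 3, an array of shared profile, and all models overlapped.

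Losses of the locus were unevenly shared between models whose tumors start with p53 or Rb function reduced or removed, that is BRCA1fl/fl;p53+/-, p53fl/fl and C3(1), and models driven by an added oncogene. In the first set 7 of 16 tumors had lost the locus (43.8%, 19.8 to 70.1%), by model 3 of 5, 2 of 6 and 2 of 5. In the oncogene set 1 of 29 had (3.45%, 0.0873 to 17.8%), with 0 of 5 in c-Myc, 0 of 5 in Her2/neu, 0 of 9 in PyMT, 0 of 5 in Wnt1 and 1 of 5 in H-Ras. Without the 4 arrays of shared profile the counts were 7 of 14 and 1 of 27. The comparison of counts was chosen after they were seen, so no test of it is given. Of the 7 lost tumors 6 lay on slides that held no other model, as did 14 of the 16 tumors of the first set and 12 of the 29 of the second. The genome at large was split the same way, since 21.8% of pairs of autosomal probe and tumor were lost in the first set and 4.81% in the second, so this difference is not particular to the locus. With a segment mean of at most -0.3 as the call, and with the intervals the authors deposited, the counts were 2 of 16 against 1 of 29 tumors. The mean level did not pass a test, at -0.13 ± 0.30 (SD, n = 16) against -0.09 ± 0.14 (n = 29), with a two-sided permutation p of 0.627. Tumors with the locus lost had 6.22 to 83.8% of the genome altered (median 58.6%), and tumors with neither loss nor gain there 0.0541 to 61.2% (median 10.5%).

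The locus was also set against the rest of its chromosome within each tumor. Over the 45 tumors the locus mean was 0.06 below the mean of the other chromosome 4 probes (difference -0.06 ± 0.13, SD), with the locus lower in 30 of 45 tumors and a two-sided sign-flip permutation p of 0.00546. Without the 4 arrays of shared profile it was -0.07 (permutation p = 0.00067, 41 tumors). Against the flanks the difference was -0.05 (permutation p = 0.0127). The member probes also have offsets of their own. Over the 37 tumors in which the locus was not lost, the mean values of the 4 probes ran from -0.14 to 0.02, and those of the flanking probes from -0.28 to 0.36 with an SD of 0.127, and the part of such offsets in the shift was not tested. By model, the difference was -0.14 in PyMT (lower in 8 of 9 tumors, exact sign-flip permutation p = 0.0117, adjusted 0.0938) and -0.10 in p53fl/fl (lower in 6 of 6, p = 0.0312, adjusted 0.125), and none of the 8 models passed after adjustment. Without MMTV-PyMT tumor 7 the PyMT value was -0.10.

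Within the locus, Cdkn2a read higher than Mtap in 36 of 45 tumors. Gene means of Cdkn2a ran from -0.96 to 0.50 with a median of -0.05, and those of Mtap from -0.97 to 0.23 with a median of -0.14. As a description over the 45 tumors, whose values share array and normalization, the pair correlated at r = 0.67. In MMTV-Her2/neu tumor 4 Mtap read -0.41 and -0.43 and Cdkn2a 0.43 and 0.17. The single-probe SD of that array was 0.336, and the difference between the genes in this tumor was not tested. An unnamed probe between the genes, at chr4:88654555-88654614, read -2.67 in MMTV-H-Ras tumor 5, where the 4 member probes averaged -0.08, against a median of -0.11 over all tumors. The same probe was low in other tumors too, at -1.33 in C3(1)/SV40 T/t-antigens tumor 1, -1.15 in BRCA1fl/fl;p53+/-;MMTV-cre tumor 3, where the locus mean was -0.22, and -0.70 in C3(1)/SV40 T/t-antigens tumor 5, where it was -0.11. MMTV-Her2/neu tumor 4 and MMTV-H-Ras tumor 5 had no loss or gain call at the locus.

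**Figure D5:**
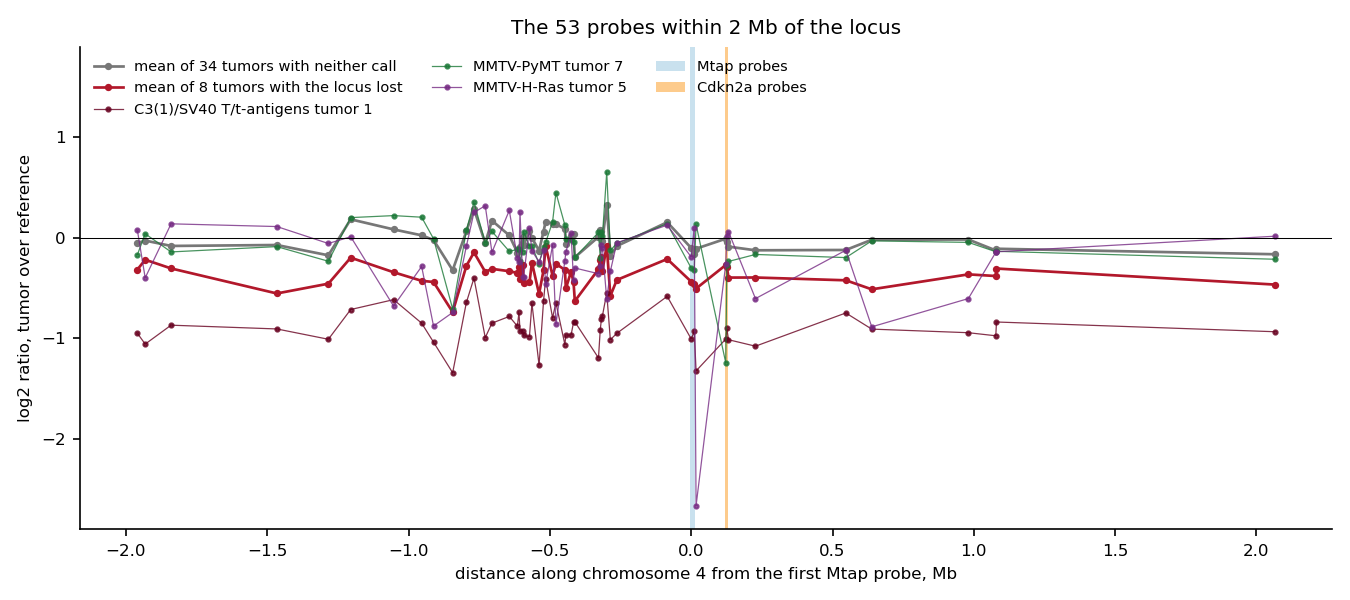
Log2 ratio at the 53 probes within 2 Mb of the locus, against the distance in Mb from the first Mtap probe, as the mean of the 8 lost tumors, the mean of the 34 tumors with neither call, and 3 single tumors; shaded bands mark the Mtap and Cdkn2a probes. The lost tumors are low across the whole window, MMTV-PyMT tumor 7 drops to -1.25 at a single Cdkn2a probe, and MMTV-H-Ras tumor 5 to -2.67 at an unnamed probe.

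A linear model with limma over 20910 gene names asked which genes differed among the models, and 4288 (20.5%) did at an adjusted p under 0.05. That number fell to 1639 with slide as a random block and to 450 with scan date as a fixed term and the BRCA1fl/fl model left out, so the share is tied to this fit. Of the member genes 0 of 2 did, with an adjusted F-test p of 0.318 for Cdkn2a and 0.995 for Mtap. Nor was either called in any of the 8 comparisons of a model with the mean of the other models, in which 16.5% of genes were called for p53fl/fl, 5.01% for BRCA1fl/fl, 4.29% for H-Ras, 0.65% for c-Myc, 0.588% for PyMT, 0.0765% for Wnt1, 0.0287% for Her2/neu and 0.00478% for C3(1). The largest differences of Cdkn2a were 0.28 in Her2/neu (SE 0.11, limma adjusted p = 0.279) and -0.18 in PyMT (SE 0.09, limma adjusted p = 0.357), and those of Mtap lay between -0.06 and 0.07. Without the 4 arrays of shared profile the F-test p was 0.148 for Cdkn2a and 0.762 for Mtap (limma, adjusted), and the largest Cdkn2a differences were -0.36 in C3(1) (SE 0.13, limma adjusted p = 0.969) and 0.34 in Her2/neu (SE 0.13, limma adjusted p = 0.632). Mtap in C3(1) was then -0.25 (SE 0.13, limma adjusted p = 0.9996), against -0.01 with all arrays. The median absolute difference was 0.0481 for the members and 0.116 for all genes.

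Most genes near the locus shared its segment. The window held 20 other named genes, among them the interferon genes Ifnb1, Ifna12, Ifna13 and Ifne1, secreted antiviral cytokines, and Mllt3, a subunit of a transcription elongation complex. Of these, 19 lay in a lost segment in the same 8 tumors as the locus. Slc24a2, at the edge of the window, did not, since its probe there lay in a segment of mean 0.47 in BRCA1fl/fl;p53+/-;MMTV-cre tumor 3. With the members counted, 2 of 21 gene names tested in the window differed among the models (9.52%, beside 20.5% of all genes), and both carry only the name of a transcript record. AK016108 was -0.75 (SE 0.19, limma adjusted p = 0.0238) and AK089786 -0.58 (SE 0.15, limma adjusted p = 0.0237) in H-Ras tumors relative to the other models. In the p53fl/fl model, where 16.5% of all genes were called, 3 of the 21 were. Dmrta1, a DM-domain transcription factor gene, was higher by 0.49 (SE 0.16, limma adjusted p = 0.0262), Ifne1 by 0.37 (SE 0.13, adjusted 0.0368) and AK129338 by 0.51 (SE 0.16, adjusted 0.0283). The last 3 did not pass the F-test over the models (limma adjusted p = 0.153, 0.0765 and 0.115). Each of these 5 values is that of a single probe, and the members beside them did not pass.

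Along the genome, genes whose values followed the locus mean closely outside the window included, on chromosome 4, C8b (r = 0.86), Ror1 (0.82), Cmpk (0.79) and AK160260 (0.78), at 11.1 to 35.4 Mb from the locus. The median r was 0.50 over 1239 genes of the chromosome, 0.58 over 19 in the window and -0.04 over 19650 elsewhere. Elsewhere the highest were Rtp4 (0.53), C2ta (0.52), AK043621 (0.50), AK043398 (0.50) and F730023N20 (0.49), all on chromosome 16. These are descriptions over 45 tumors, and genes of 1 chromosome lost together share their values.

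A list of genes that act in the p16INK4a-Rb and p19ARF-p53 pathways or are known to regulate the locus (among the latter Bmi1, Tbx2, Twist1 and Ptdsr) was examined as well. Of its 21 genes with a probe, 3 differed among the models (14.3%, beside 20.5% of all genes), so the list was called no more often than genes at large. These were the kinase inhibitor gene Cdkn1a, the kinase gene Cdk6 and Ptdsr. In single comparisons, in which 16.5% of all genes were called for p53fl/fl and 4.29% for H-Ras, Mdm4, an inhibitor of p53, was higher by 0.29 in the p53fl/fl model (SE 0.10, limma adjusted p = 0.0413), Ccnd3, a D-type cyclin, by 0.36 in the H-Ras model (SE 0.10, limma adjusted p = 0.0393), and Twist1, a transcription factor gene, differed by -0.36 in the p53fl/fl model (SE 0.12, limma adjusted p = 0.0340). None of these 3 passed the F-test over the models (limma adjusted p = 0.0563, 0.0526 and 0.0986). Cdkn2d and Cdkn1b had no probe. By segment, Rb1 was lost in 5 tumors, 3 of them with the locus lost, and Trp53 in 6, of which 4 had. The Trp53 probes averaged -0.10 and -0.28 in the p53fl/fl tumors, so they do not report the engineered deletion. Mdm2, the target of p19ARF, was lost in 10 tumors and gained in 2, Ccnd1 lost in 16 and gained in 1, and Myc gained in 16 and lost in 2, where an autosomal probe was lost in a median of 4 tumors and gained in a median of 6 (range 0 to 23).

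Other tumor suppressor genes of chromosome 4 were lost mostly in the same tumors as the locus. Cdkn2c, which encodes the related inhibitor p18INK4c, was in a lost segment in 7 tumors, all 7 of them with the locus lost. E2f2, an E2F transcription factor gene of the same chromosome, was lost in 7, again all with the locus. Pax5 and Epha2 were each lost in 5 tumors, all with the locus, and the p53 relative Trp73 in 6, of which 5 had lost the locus. Of the 4 suppressor genes with a probe, 1 differed among the models (25.0%, beside 20.5% of all genes), Trp73, which was higher by 1.73 in the p53fl/fl model (SE 0.42, limma adjusted p = 0.00454). This is the value of a single probe, which ran from -1.69 to 3.26 over the 45 tumors, and the p53fl/fl segments that held it averaged -0.32 to 0.14, none of them called gained. Runx3, Chd5 and Arid1a had no probe under these names.

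The study was about Jmjd6, a gene of distal chromosome 11 whose probe carries its older name Ptdsr, and about p19ARF, so gain of the one was set beside loss of the other. The paper's evidence linking them concerned p19ARF mRNA, protein and histone methylation at its promoter. The values here are DNA copy number, which does not measure any of these. Ptdsr lay in a gained segment in 13 tumors, beside the median of 6 for an autosomal probe, and the locus was lost in 2 of these, BRCA1fl/fl;p53+/-;MMTV-cre tumors 3 and 5. In the 11 tumors with Ptdsr gained and the locus not lost, locus means ran from -0.22 to 0.14 with a median of -0.13. Among the 4 MMTV-c-Myc tumors with the gain, whose Ptdsr segments averaged 0.49 to 1.97, they were -0.08, -0.11, -0.11 and -0.14, so no copy number loss of Cdkn2a or Mtap was called beside the chromosome 11 gain in this model. A further 6 tumors had lost the locus without a gain of Ptdsr.

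The intervals deposited by the authors, which are mean log2 ratios over called regions, held a loss over the locus in 3 tumors, all of them among the 8. These were BRCA1fl/fl;p53+/-;MMTV-cre tumor 1 at -0.24, C3(1)/SV40 T/t-antigens tumor 1 at -0.91 and MMTV-H-Ras tumor 1 at -0.34. They held a gain in C3(1)/SV40 T/t-antigens tumor 3 at 0.62 and p53fl/fl;MMTV-cre transplant tumor 3 at 0.49. The other 5 losses, whose segments averaged -0.31 to -0.27, were not in that table.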

How the data were processed

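Genomic DNA of 45 mammary tumors was hybridised against pooled spleen DNA on Agilent 44K 2-colour arrays, 1 array per tumor, without dye swaps. The authors deposited, per the file headers, log10 ratios of Cy5 over Cy3 and processed, raw and background intensities from Feature Extraction 9.5.1.1 (10.7 per the labels), background-subtracted and dye-normalized, on build mm8. Per the file headers, a deposited interval table gives the mean log2 ratio and number of probes of each called gain or loss (Agilent ADM-2 algorithm). The interval files of single models hold filtered parts of it and were not used.

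From these, log2 ratios were turned to Cy3 over Cy5, repeated spots of a probe averaged, outlier-flagged spots left out, and each array centred on its autosomal median, which fixes the median copy number of each tumor at 0. Segments came from a recursive binary split with a statistic above 6 and at least 5 probes. Models were compared by exact permutation tests (100000 permutations where enumeration was too long), with Benjamini-Hochberg adjustment over 8 models, and genes by limma 3.58.1 in R 4.3.3 on gene means. Other steps used Python 3.11.15, numpy 2.4.6, scipy 1.17.1 and pandas 2.3.3. The limma fit was tested on simulated data. Groups are the models in the labels, and tumor numbers follow no label.

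The genes named in the text were the members, every named gene within 2 Mb, fixed lists of pathway genes and of chromosome 4 suppressor genes, and the 5 genes on and 5 off chromosome 4 most correlated with the locus; 1 gene that met this rule is not reported here. The members, lists and tests were chosen with earlier results of these data known. Alternatives covered background correction, centring, loess, flags, thresholds, segmentation, the deposited intervals, slide and scan date, and leaving out arrays.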

Additional observations from a re-analysis of the deposited data

Results flagged for a closer look

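Groups of 4 to 10 tumors were screened with Dixon's ratio for a tumor far from the others of its model. Of 40 groups tested 4 stood out, where chance gives about 1 in 20. MMTV-PyMT tumor 7 accounted for 3 of them. Its locus mean was -0.53 against -0.24 to 0.06 in the other 8 PyMT tumors, its locus minus the rest of chromosome 4 was -0.49 against -0.21 to 0.05, and its Cdkn2a mean was -0.76 against -0.35 to 0.06. All 3 values contain the Cdkn2a probe that read -1.25. The remaining one was Cdkn2a in MMTV-c-Myc tumor 5, at 0.082 against -0.11 to -0.06 in the other 4 tumors of that model. No cause was tested for either tumor.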

How the results depend on the processing

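The number of tumors with the locus lost was 8, and it was 3 with a segment threshold of -0.3, 3 in the deposited intervals and 3 with the dyes as the labels give them. It was 6 when arrays were centred on the density peak, 7 after normexp, 10 at a threshold of -0.15 and 9 with a split statistic of 5. With the density peak, C3(1)/SV40 T/t-antigens tumor 5 and p53fl/fl;MMTV-cre transplant tumor 1 were no longer called. That left 5 of 16 tumors in the models with p53 or Rb inactivated and 1 of 29 in the oncogene models. Whole-chromosome losses, 5 in number, were 3 with the density peak, 2 at -0.3, 2 in the deposited intervals and 3 when 95% of the probes were required. The focal loss, 1 tumor, was 0 with the median of the member probes and, in settings chosen after seeing the data, 0 with probes centred on their medians, 0 with 7 probes and 0 without the lowest Cdkn2a probe. The H-Ras difference from the other models reversed to 0.0042 with the density peak. Locus minus the rest of chromosome 4 reversed in C3(1) to -0.084 and in H-Ras to -0.037 after normexp, in C3(1) to -0.0098 without the 4 arrays of shared profile, and in BRCA1fl/fl to 0.047 against the flanks. The cause was not tested. The excess of lost tumors in models with p53 or Rb inactivated, 40.3 percentage points, was 9.05 points at -0.3 and 9.05 points in the deposited intervals. The 4288 genes that differed among models were 1639 with slide as a random block, 2298 without the shared-profile arrays, and 450 with scan date as a fixed term in the 7 models other than BRCA1fl/fl (chosen after seeing the data). They were 7799 probes where probes were tested. Scan date over all 8 models could not be fitted, since the BRCA1fl/fl arrays had scan days of their own.

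Leaving out each tumor in turn moved the differences of the models from the others to between -0.177 and 0.155 for C3(1), whose sign turned without tumor 1, -0.072 and 0.038 for H-Ras, where it turned without tumor 1, -0.036 and 0.094 for p53fl/fl, where it turned without tumor 3 and without tumor 4, -0.0015 and 0.046 for c-Myc, where it turned without tumor 5, -0.09 and -0.03 for BRCA1fl/fl, 0.12 and 0.19 for Her2/neu, -0.11 and -0.04 for PyMT and 0.03 and 0.07 for Wnt1. The p53 or Rb against oncogene difference lay between -0.066 and 0.023 and turned without C3(1) tumor 1, c-Myc locus minus rest between -0.037 and 0.0059 (turned without tumor 3), and the gene count between 3091 and 5188. No adjusted p of a model comparison or of the Cdkn2a or Mtap F-test passed in any of these. No paired analysis was possible because the labels number no tumors across models, so replicate numbers only name them. Precision was limited by 4 probes per tumor and by the unknown share of normal cells.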
